A study of Caenorhabditis elegans with 2 samples.

Results

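The tRNA genes of the nuclear genome of Caenorhabditis elegans were examined for peaks of EGL-43, a zinc finger transcription factor. All genes of biotype tRNA on the 6 nuclear chromosomes of WBcel235 in Ensembl release 115 were taken, and each was widened by 200 bp on both sides. This gave 612 tRNA genes among 46890 nuclear genes of any biotype. Every one of the 612 has an entry at the same coordinates and strand in RefSeq, which gives the amino acid of the tRNA (its isotype) for 607. The values come from chromatin immunoprecipitation with an anti-GFP antibody followed by sequencing in whole L4 larvae, aged 49 hours after synchronisation by bleaching and L1 starvation, with chromatin sheared by sonication. The worms were of strain RW12181, in which CRISPR placed a tag in egl-43 on chromosome II, written egl-43::TY1::EGFP::3xFLAG. There were 2 biological replicates of 1 group. No untagged worms were analysed here, so binding of EGL-43 at tRNA genes cannot be told apart from signal that would be there without it.

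The deposited data are lists of peaks that were ranked, and then thresholded, by the irreproducible discovery rate. A list for both replicates together (the series list, 3146 peaks), a conservative version of it (3024 peaks), and a list for replicate 1 (1532 peaks) and for replicate 2 (1621 peaks) were used in thresholded form. The longer ranked list behind the series list held 65641 peaks. Signal is the authors' own value for a peak, with no stated scale, and is used here only within a list. Read depth is unknown, since the lists hold no counts. Shares carry Wilson 95% intervals and differences of shares Newcombe 95% intervals. Both cover counting error only, and are too narrow where tRNA genes share a peak or a sequence.

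Transfer RNAs are short adaptor RNAs that carry amino acids to the ribosome, and their genes are transcribed by RNA polymerase III. The promoter lies inside the gene. Its boxes A and B are bound by the factor TFIIIC, which places TFIIIB just upstream of the gene, and transcription ends at a run of T after the gene. Most tRNA genes of C. elegans belong to families of identical copies scattered over the genome, many of them on the X chromosome or in introns of protein-coding genes.

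The following tRNA genes show the box B element and the range of outcomes. They are printed on their own strand from the RefSeq WBcel235 genome, with the match to box B, GTTCGANNC, in capitals. F15G9.t1 (Ala, chrX:9743589-9743660, plus strand) lies under the strongest peak at any tRNA gene. C04A11.t1 (Leu, chrX:13665555-13665673, plus strand) is the strongest lone tRNA gene, meaning that it has no other tRNA gene within 1000 bp. K11H12.t1 (Sec, chrIV:658181-658266, plus strand) is the selenocysteine tRNA gene. F47E1.t3 (chrX:9059280-9059394, minus strand) is annotated with no isotype and had no peak in any list.
F15G9.t1: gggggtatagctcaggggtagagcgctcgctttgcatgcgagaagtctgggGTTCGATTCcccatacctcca
C04A11.t1: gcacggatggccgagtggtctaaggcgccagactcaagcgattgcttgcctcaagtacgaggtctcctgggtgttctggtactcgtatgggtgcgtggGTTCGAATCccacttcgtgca
K11H12.t1: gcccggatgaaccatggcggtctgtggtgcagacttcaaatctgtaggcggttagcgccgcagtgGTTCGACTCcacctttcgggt
F47E1.t3: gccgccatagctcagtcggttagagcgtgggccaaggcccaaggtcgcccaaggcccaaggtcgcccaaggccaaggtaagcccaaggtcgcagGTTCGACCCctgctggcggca

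More tRNA genes than not had a peak summit of the series list within 200 bp. The count was 344 of 612, or 56.2% (52.3 to 60.1). For background, 1.46% of 212439 windows of 472 bp, the width of a widened tRNA gene, held a series summit, as did 6.50% of all nuclear genes widened by 200 bp. The shares of tRNA genes were 57.0% in the conservative list, 58.3% (357 genes) in replicate 1 and 52.5% (321 genes) in replicate 2, against 1.40%, 0.707% and 0.748% of the windows. The ranked series list reached 66.0% of tRNA genes, against 27.2% of windows.

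In the thresholded series list no other class of genes counted came near the share of tRNA genes. Among genes of small nuclear RNAs, some of which are also transcribed by RNA polymerase III, 25.6% (18.8 to 33.7, n = 129) had a series summit. The share was 22.5% (18.5 to 27.2, n = 346) for small nucleolar RNA genes, 8.85% for protein-coding genes, 4.98% for miRNA genes and 0.0586% for piRNA genes. In the ranked series list the classes lay closer together, with 66.0% of tRNA genes, 61.6% of small nucleolar RNA genes and 54.5% of protein-coding genes. The difference from small nucleolar RNA genes was 4.45 points there (-1.83 to 10.8). Wide protein-coding genes and the short RNA genes were all counted over the gene with its flanks.

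The tRNA genes were also set beside the 209 nuclear tRNA pseudogenes of RefSeq, of which 11, or 5.26% (2.96 to 9.18), had a series summit. The difference from tRNA genes was 50.9 percentage points (45.4 to 55.5). In the ranked series list 66.0% of tRNA genes and 56% of pseudogenes (117 of 209) had a summit, a difference of 10 points (2.43 to 17.7). The share of matches to box B on the own strand was 72.1% in tRNA genes and 68.9% in pseudogenes, against 0.260% of all genome windows of 72 bp, the median gene length. The relaxed form GTTCNANNC matched 95.9% of tRNA genes, 78.9% of pseudogenes and 1.23% of windows. The box A letters TGGCNNAGT matched 9.97% of tRNA genes, 50.2% of pseudogenes and 0.323% of windows. A run of 4 T within 40 bp after the gene was found at 98.9% of tRNA genes and 92.3% of pseudogenes, and in 44.4% of all genome windows of 40 bp.

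A few pseudogenes had signals as high as those of strong tRNA genes. C52E12.t1, in an intron of the kinesin gene unc-104 (chrII:7001627-7001698, plus strand), had a signal of 467 with its summit 11 bp into the pseudogene, and lies 1295 bp from the nearest tRNA gene. D1046.t1 (chrIV:8927200-8927273, plus strand) had 453 and lies 73531 bp from any tRNA gene. Both sequences are shown for comparison with F15G9.t1, with box B in capitals where it matches.
C52E12.t1: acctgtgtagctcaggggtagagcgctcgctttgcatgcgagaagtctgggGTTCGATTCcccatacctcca
D1046.t1: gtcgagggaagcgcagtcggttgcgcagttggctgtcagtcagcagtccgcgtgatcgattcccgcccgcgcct
C52E12.t1 differs from F15G9.t1 by 5 edits, all within the first 7 bases, and the last 65 bases are identical. D1046.t1 matches neither the exact nor the relaxed box B.

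Summits lay in the body of the tRNA gene, toward its 5′ end. Over the 197 lone tRNA genes with a summit, 82.7% of the strongest summits were inside the gene, 13.2% upstream and 4.06% downstream. The median position was 23 bp from the first base, with quartiles at 9 and 39 bp, and 74.6% fell in the first 50 bp. In the 148 lone genes with an exact box B, the middle of that element lay a median of 36 bp downstream of the summit. The median position was 23 bp in replicate 1 and 21 bp in replicate 2. Over all 344 genes, 73.0% of summits were inside, 22.7% upstream and 4.36% downstream. The 11 pseudogenes with a series summit were alike in this respect, with 81.8% of summits inside and a median position of 25 bp. Small nucleolar RNA genes differed, with 73.1% of 78 summits upstream and a median position of -37 bp.

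**Figure D1:**
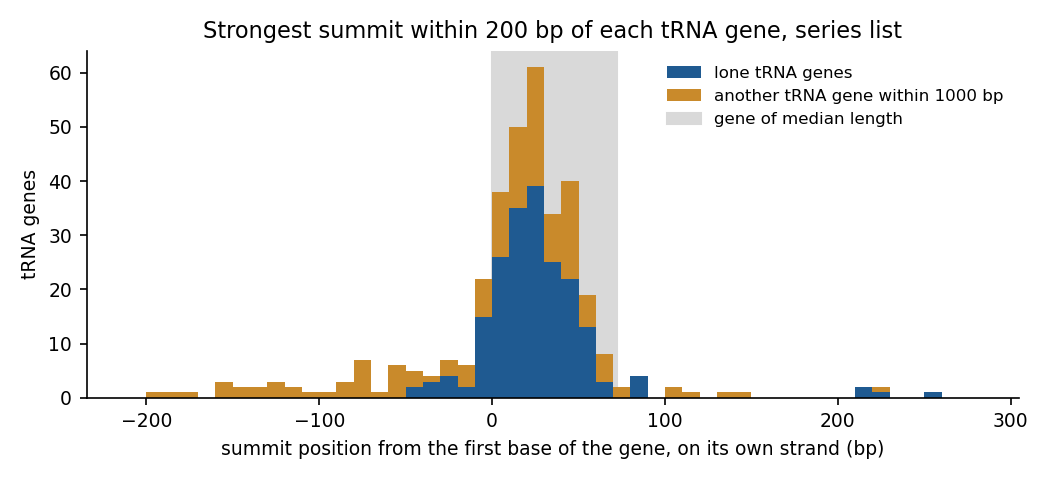
Histogram of the position of the strongest series summit within 200 bp of each of 344 tRNA genes, in bp from the first base of the gene on its own strand, in bins of 10 bp. Blue marks lone tRNA genes and orange those with another tRNA gene within 1000 bp; the grey band is a gene of 72 bp, and the lone genes centre on a median of 23 bp while nearly all summits beyond 50 bp upstream belong to clustered genes.

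Most of the summits counted lay well inside the 200 bp limit. The nearest summit was inside the gene for 254 genes, and between 1 and 50 bp away for 52, 51 and 100 bp for 20, 101 and 150 bp for 11, and 151 and 200 bp for 7. The 3 genes just inside the limit were F46G11.t1 at 182 bp, Y57A10C.t1 at 188 bp and ZK970.t4 at 194 bp. Just outside were F28H6.t7 and R04E5.t1 at 204 bp and F22F1.t2 at 205 bp. In all, 17 genes had their nearest summit at 201 to 250 bp, more than at 151 to 200 bp. The comparison of clustered with lone genes depended on the distance allowed, as given below.

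Peaks at tRNA genes were stronger than other peaks of the same list. The 316 series peaks with a summit near a tRNA gene had a median signal of 247 (exact 95% interval of the median 230 to 266), against 135 (133 to 137) for the other 2830. Their median width was 246 bp against 330 bp in the series list, but it did not differ from that of other peaks in replicate 1 (310 bp for both) or replicate 2 (324 bp for both). In the replicate 1 list the medians were 130 at tRNA genes and 94.1 elsewhere, and in the replicate 2 list 136 and 95.9. Counted by gene, the median series signal was 248 for tRNA genes with a summit. It was 322 for small nucleolar RNA genes and 201 for small nuclear RNA genes. The medians for tRNA and small nucleolar RNA genes were 131 and 196 in replicate 1, and 136 and 173 in replicate 2. Of the 50 strongest series peaks 8 were at tRNA genes, of the 100 strongest 26, of the 200 strongest 70 and of the 500 strongest 163.

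The strongest peaks at tRNA genes stood on the X chromosome. All of the top 10 were on X, as were 17 of the top 20, 28 of the top 50 and 138 of all 316. The first, at the tandem Ala genes F15G9.t1 and F15G9.t2 in an intron of him-4, which encodes the extracellular matrix protein hemicentin, had signals of 868 in the series list, 392 in replicate 1 and 481 in replicate 2. It ranked 8 among all series peaks. The peak between the divergent genes M02F4.t1 (Gly) and M02F4.t2 (Glu) followed at 758, with 382 in replicate 1 and 380 in replicate 2. C04A11.t1 (Leu) had 708, with 395 in replicate 1 and 312 in replicate 2. Both replicate lists thus held each of these peaks near their own top, although the order of the 3 differed between them.

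Next among the strongest were F41D9.t3 (Asn, in an intron of sulp-3, a sulphate permease family gene) at 693 and R11.t1 (Tyr) at 683. C28G1.t1 (Glu), which overlaps an exon of C28G1.2, had 619, and the divergent Ser pair C53C7.t1 and C53C7.t2 had 613. C02B4.t2 (Tyr) in the nuclear hormone receptor gene nhr-17 had 588, C40H5.t1 (Leu) 558 and the divergent Gly pair T10B10.t2 and T10B10.t1 551. T07H6.t2 (Ala) had 540, F38G1.t2 (Asp) in the fibroblast growth factor gene egl-17 had 537, and E03E2.t1 (Ser) in the monoamine transporter gene cat-1 had 514. On the autosomes the highest signals were 489 at T21B4.t1 (Ile, in the collagen gene col-85) on II, 471 at T23F1.t1 (Lys) on V and 463 at F52C9.t1 (Thr) on III. On IV the highest was 459 at K08E7.t1 (Lys, in the P-glycoprotein gene pgp-1), and on I it was 438 at F22G12.t1 (Val).

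The lead of X at the top did not extend to the typical peak or to the share of genes. The median signal of tRNA peaks was 250 (220 to 278) on X and 246 (224 to 269) on the autosomes. A summit was found at 153 of 276 tRNA genes on X, or 55.4%, and at 191 of 336 on the autosomes, or 56.8%. The difference of -1.41 points had an interval of -9.27 to 6.44. Among single chromosomes the share was 70.2% on II (40 of 57), 68.8% on III (44 of 64), 57.6% on I (38 of 66), 48.7% on V (38 of 78) and 43.7% on IV (31 of 71). The intervals of neighbours in this order overlapped. Those of II (57.3 to 80.5) and IV (32.7 to 55.2), picked here as the extremes, did not, nor did those of III (56.6 to 78.8) and IV. In the conservative list and in each replicate list the intervals of II and IV overlapped.

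Lying inside a protein-coding gene made no detectable difference at this number of genes. Of 283 tRNA genes in introns 160 had a summit, or 56.5%, against 179 of 319 between genes, or 56.1%, a difference of 0.424 points (-7.48 to 8.30). A further 10 tRNA genes overlapped an exon, and 5 of them had a summit. The class between genes includes tRNA genes that overlap genes of other biotypes. With those left out, introns minus between genes was 5.50 points (-4.40 to 15.3). Among intronic genes the share was 56.5% (n = 161) on the strand of the host and 56.6% (n = 122) on the opposite strand. By distance from the gene to the nearest protein-coding transcription start, the share ran from 43.9% beyond 5000 bp (n = 57) to 67.7% at 201 to 500 bp (n = 96). It was 48% within 200 bp (n = 25), so the closest class was not the highest.

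The share varied with the isotype. Asp genes had the highest share among isotypes of more than 1 gene, 22 of 27 or 81.5% (63.3 to 91.8), and Gln genes the lowest, 9 of 27 or 33.3% (18.6 to 52.2). In between were Glu at 68.3% (n = 41), Met at 65.0% (n = 20), Val at 64.5% (n = 31), Pro at 61.9% (n = 42) and Gly at 61.8% (n = 55). At the low end were Ser at 46.2% (n = 39), His at 45.0% (n = 20), Phe at 42.9% (n = 14) and Asn at 40% (n = 20). The intervals of all neighbours in this order overlapped, while those of Asp and Gln, picked here as the extremes, did not. These 2 isotypes were closer in the replicate lists, where Asp genes had 66.7% in replicate 1 and 70.4% in replicate 2, and Gln genes 48.1% and 40.7%. Asn genes, low in the series list, had 50% in replicate 1 and 60% in replicate 2. None of the 5 genes with no isotype had a summit in any thresholded list, with a Wilson interval of 0 to 43.4%. Dividing 3 counts by the 5 genes gives a wider limit of 60%, which is only rough at so few genes.

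**Figure D2:**
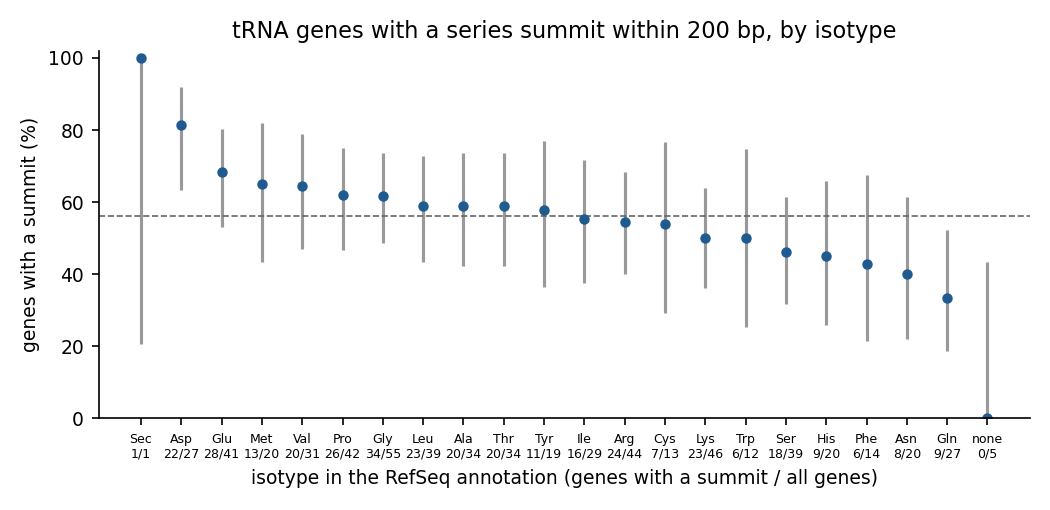
Share of tRNA genes with a series summit within 200 bp, in percent, for each RefSeq isotype, ordered by share, with counts under each name; bars are Wilson 95% intervals and the dashed line is the 56.2% of all 612 genes. Asp stands highest among isotypes with more than 1 gene at 81.5% and Gln lowest at 33.3%, and most intervals include the dashed line.

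In the thresholded lists the share was higher for tRNA genes that had a copy or a close relative elsewhere. Single-copy genes had a summit in 61 of 143 cases, or 42.7% (34.8 to 50.9), and genes with an identical copy elsewhere in 283 of 469, or 60.3% (55.8 to 64.7). The difference, single-copy minus the rest, was -17.7 points (-26.6 to -8.34). It was -21.4 points in replicate 1 and -15.5 in replicate 2. Within single-copy genes the share was 51.1% (46 of 90) at 1 to 3 edits from the nearest other tRNA gene, 40% (14 of 35) at 4 to 10 edits and 5.56% (0.988 to 25.8; 1 of 18) beyond 10 edits. With copies, it was 49.3% at 2 to 4 copies (n = 67), 63.5% at 5 to 9 (n = 85), 55.4% at 10 to 14 (n = 101) and 64.8% at 15 or more (58.2 to 70.9, n = 216), with no steady order among these classes.

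The 1 gene with a thresholded summit among those beyond 10 edits was K11H12.t1, printed above, which is 34 edits from its nearest relative. It serves selenocysteine, read at UGA codons with dedicated factors. Its signal was 165 in the series list and 98.7 in the replicate 2 list, and no summit of the replicate 1 list lay within 200 bp. F47E1.t3, also printed above and 41 edits from any other tRNA gene, had no peak in any list despite an exact box B. The sources used here do not say how reads from identical copies were placed, and the part of read placement in these shares was not tested.

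**Figure D3:**
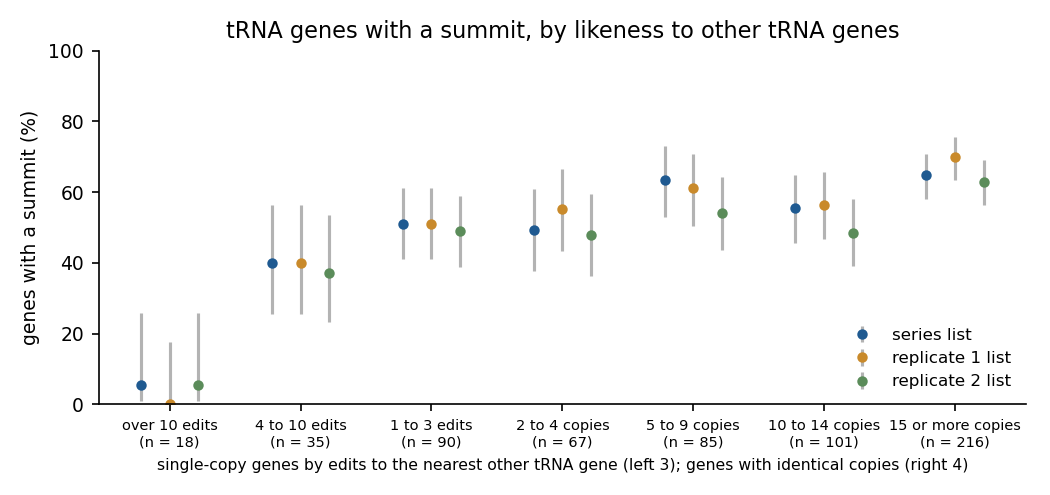
Share of tRNA genes with a summit within 200 bp, in percent, in the series list (blue), the replicate 1 list (orange) and the replicate 2 list (green); single-copy genes are split by their edit distance to the nearest other tRNA gene and the rest by number of identical copies, and bars are Wilson 95% intervals. The series share is 5.56% beyond 10 edits and 64.8% at 15 or more copies.

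Identical genes did not share 1 outcome. Of the 57 families of identical genes, 32 had 5 or more copies, and all 32 held both genes with and genes without a series summit. In 29 of these families at least 1 copy also lacked a peak in every list. The largest family, 29 Gly genes, had a summit at 22 copies, with signals between 178 and 758 (median 255). The next had a summit at 16 of 25 Lys genes, 15 of 24 Pro genes, 18 of 21 Asp genes, 12 of 20 Glu genes and 12 of 19 Ile genes.

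The family of 24 Pro genes is shown because its copies span the whole range of outcomes. ZK899.t1 (chrX:9467729-9467800, minus strand), the strongest lone copy, had signals of 431 in the series list, 244 in replicate 1 and 196 in replicate 2, with the summit 23 bp into the gene. F02H6.t1, between genes on IV, and R11G10.t2, in an intron of the chloride channel gene avr-15 on V, had no peak in any list. The gene sequence, the same in all 24, has the relaxed box B in capitals. The 60 bp before each gene follow, with no capitals, for ZK899.t1 (chrX:9467801-9467860, minus strand), F02H6.t1 (chrIV:14225042-14225101, plus strand) and R11G10.t2 (chrV:13507275-13507334, minus strand).
Pro gene: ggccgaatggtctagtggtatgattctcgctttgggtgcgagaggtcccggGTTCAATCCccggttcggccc
ZK899.t1 upstream: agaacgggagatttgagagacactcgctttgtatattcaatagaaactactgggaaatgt
F02H6.t1 upstream: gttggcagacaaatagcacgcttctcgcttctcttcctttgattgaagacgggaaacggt
R11G10.t2 upstream: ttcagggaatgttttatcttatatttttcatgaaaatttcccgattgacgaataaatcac
The copies share every base of the gene, and those printed here differ in the 60 bp before it. The flanks of the other copies were not compared, and a relation of the flanks to the outcome was not tested. Over all tRNA genes, an exact box B match did not separate genes with a summit from those without. The share was 56.7% with an exact match (n = 441) and 55.0% with none (n = 171), a difference of 1.72 points (-6.92 to 10.5). With the relaxed form the shares were 56.6% (n = 587) and 48% (n = 25), a difference of 8.56 points (-10.4 to 27). Of the 7 tRNA genes with no run of 4 T after the gene, 1 had a summit.

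Genes with another tRNA gene within 1000 bp had a summit more often than lone genes, 62.3% (147 of 236) against 52.4% (197 of 376), a difference of 9.89 points (1.83 to 17.7). This turned to -5.48 points (-13.3 to 2.55) when the summit had to lie inside the gene itself, and the interval included 0 with the summit within 100 bp (4.34 points, -3.77 to 12.3) or with the peak overlapping the gene (5.08 points, -3.03 to 13). A clustered gene can be reached by the peak of its neighbour, and 32 peaks served 2 tRNA genes each while 280 served 1. Among clustered genes the share was 69.6% (64 of 92) where the nearest neighbour was divergent, 60% (57 of 95) where it was in tandem and 53.1% (26 of 49) where it was convergent. The difference between divergent and convergent genes was 16.5 points (-0.102 to 32.6) in the series list, 23.2 (7.04 to 38.7) in replicate 1 and 8.21 (-7.95 to 24.6) in replicate 2. In replicate 2 the share of convergent genes (59.2%) was above that of tandem genes (52.6%), so the order of these classes did not hold across lists.

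The divergent Ser pair on X shows such a shared peak. C53C7.t2 on the minus strand and C53C7.t1 on the plus strand are 130 bp apart, and the 1 summit near them lies between the genes, 57 bp before C53C7.t1 and 74 bp before C53C7.t2. The region chrX:13046366-13046659 is printed on the plus strand with both genes in capitals.
C53C7 pair: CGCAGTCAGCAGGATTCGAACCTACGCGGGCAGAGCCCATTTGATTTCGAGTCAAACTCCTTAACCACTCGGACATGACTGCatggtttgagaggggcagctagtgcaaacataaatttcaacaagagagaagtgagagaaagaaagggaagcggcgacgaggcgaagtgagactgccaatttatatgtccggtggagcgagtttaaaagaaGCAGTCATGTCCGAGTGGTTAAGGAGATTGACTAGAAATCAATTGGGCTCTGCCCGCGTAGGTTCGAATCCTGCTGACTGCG

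Where tRNA genes stood close enough for their widened regions to touch, they were merged, which gave 530 regions, 306 of them (57.7%) with a summit. Of the 530 regions, 68 held more than 1 tRNA gene. In the array of 5 Gln genes in an intron of the apical junction gene ajm-1, H08J11.t3 had a signal of 441, H08J11.t5 and H08J11.t1 shared a peak of 276, and H08J11.t4 and H08J11.t2 had no peak in any list. Of 5 Arg and Cys genes in an intron of K01A12.3, K01A12.t4 had 292 and the other 4 had no peak in any list. In the F22F1 group of 4 genes, F22F1.t6 (Met) had 279, F22F1.t7 (Ile) 203 and F22F1.t5 (Asp) 146, while F22F1.t4 (Ser) had none in a thresholded list. The regions with most genes and no series summit were the 3 genes F12D9.t6, F12D9.t1 and F12D9.t5 and the 3 Ile genes in an intron of wrt-9 (B0344.t1, B0344.t2 and B0344.t3). They were followed by 12 pairs, of which the His pair Y40H7A.t1 and Y40H7A.t2 is 1.

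The replicates were compared peak by peak. Of the replicate 1 peaks at tRNA genes 80.5% (260 of 323) overlapped a replicate 2 peak, and of the replicate 2 peaks 89.3% (259 of 290) overlapped a replicate 1 peak. For peaks elsewhere these shares were 60.6% and 55.0%. The difference, tRNA genes minus elsewhere, was 19.9 points (14.5 to 24.7) for replicate 1 peaks and 34.3 points (29.4 to 38.4) for replicate 2 peaks. The 2 sets of peaks were not matched for signal, whose median was higher at tRNA genes in both lists, and overlap at equal signal was not tested. Across overlapping pairs at tRNA genes the signals correlated with a Spearman rho of 0.792 and a Pearson r of 0.542 on log2 values, against 0.758 and 0.619 elsewhere, so the order of the 2 sets depends on the coefficient. Peaks are not independent replicates and share their library, so the correlations are descriptions. The genes with a series summit that moved most between replicates in percentile rank among ranked peaks had series signals from 113 to 156. Y7A5A.t5 (Ser) had 45.8 in the replicate 1 ranked list and 4.75 in that of replicate 2, with a series signal of 125. F31E9.t1 (Tyr) had 93.1 and 51.4, and C26G2.t1 (Ile) 108 and 52.1. In the other direction F28F8.t1 (Ser) had 36.5 in replicate 1 and 73.8 in replicate 2, ZK678.t3 (Pro) 47.6 and 99.6, and K12H4.t1 (Pro) 48.4 and 92.1.

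**Figure D4:**
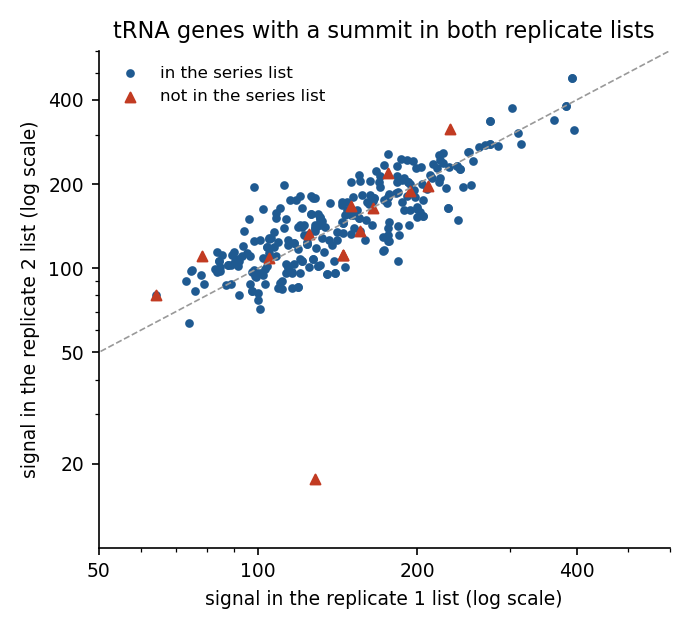
Signal in the replicate 1 list against the replicate 2 list, both on log scales, for each of the 286 tRNA genes with a summit within 200 bp in both lists; blue points are in the series list, red triangles are the 14 that are not, and the dashed line marks equal values. The 14 genes outside the series list run from 64.1 to 231 in replicate 1 and lie among the rest, except for 1 at 17.7 in replicate 2.

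The series list did not hold every tRNA gene that the replicate lists did. Of the 344 genes with a series summit, 272 had a summit in both replicate lists, 28 in that of replicate 1 alone, 24 in that of replicate 2 alone and 20 in neither. Another 68 genes had a summit in a replicate list and none in the series list, and for 62 of these the longer ranked series list also had no peak within 200 bp. Of these 68, 14 had a summit in both replicate lists, and none of the 14 had a ranked series peak within 200 bp. For F57G8.t3 and ZK154.t4, among the 14, a series summit lay just beyond that limit, at 207 bp (signal 158) and 215 bp (signal 299). The neighbours F54F7.t2 and F54F7.t1, also among the 14, had the same signals, 145 in replicate 1 and 112 in replicate 2. W02H3.t1 (Leu) had 231 in replicate 1 and 314 in replicate 2, C03B1.t1 (Trp) 210 and 197, T22A3.t1 (Gly) 194 and 189, and C15C6.t1 (Arg) 176 and 219. These values lie above the medians of 131 and 136 over all tRNA genes with a summit in those 2 lists. The lowest of the 14 were F57G8.t3 (Asn) with 64.1 in replicate 1 and 80 in replicate 2, and F12D9.t1 (Cys) with 128 and 17.7.

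This was more frequent at tRNA genes than elsewhere. In replicate 1, 13.6% of thresholded peaks at tRNA genes (44 of 323) overlapped no ranked series peak, against 5.05% of other peaks (61 of 1209), a difference of 8.58 points (4.98 to 12.9). In replicate 2 the shares were 6.55% (19 of 290) and 2.78% (37 of 1331), a difference of 3.77 points (1.24 to 7.31). The sources used here do not say why these peaks are not in the series lists. Counting a summit in any of the 4 thresholded lists gave 418 tRNA genes, or 68.3% (64.5 to 71.9). A further 63 had only a ranked peak, and 131 had no peak within 200 bp in any of the 8 lists.

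The threshold is set on a score from the peak ranking, so lower signals below it follow from how the genes were divided, and the values are given as a description. The 60 tRNA genes with a ranked series peak but no thresholded one had a median ranked signal of 70 (3.51 to 152), against a median of 248 (113 to 868) for the 344 with a series summit. The strongest of the 60 were Y18H1A.t1 (Leu) at 152, T01B4.t2 (Val) at 138, R09E10.t1 (Gln) at 131, ZK617.t1 (Pro, in the twitchin gene unc-22) at 123 and B0344.t2 (Ile) at 121. Each of these 5 had a thresholded summit in the conservative list or a replicate list. The signals of genes with and without a series summit therefore overlapped between 113 and 152.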

How the data were processed

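Members and lists were chosen with earlier results of these data known. Per the labels, peaks are on ce11, the same assembly as WBcel235. Each peak has a score from 0 to 1000, derived from the irreproducible discovery rate and deposited by the authors (lowest in the series list 830), a signal value deposited by the authors, and a summit offset. The aligner and the program that called peaks were not given in the sources used here. Each tRNA gene took the strongest summit within 200 bp. Introns are those of protein-coding genes. Isotypes, pseudogenes and sequences come from RefSeq; identical copies were counted on the own strand, and edits are to the nearest other tRNA gene. Peaks overlapped at 1 bp or more. The assignment was tested on simulated data. Named genes were the 12 strongest regions, the strongest per chromosome and per location (5 each), the largest regions with and without a summit, those at the 200 bp limit, the 6 largest families, the 5 strongest below threshold and the extremes between replicates. Pseudogenes, relaxed boxes, edit classes, orientation, start distances, genes in both replicate lists but not the series list and the printed sequences were chosen after seeing the data. With 1 group, no test over samples was possible. Python 3.11.15, numpy 2.4.6, pandas 2.3.3 and scipy 1.17.1 were used.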

Additional observations from a re-analysis of the deposited data

How the results depend on the processing

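No paired analysis was possible because the replicates form 1 group. Of 87 values recomputed under alternatives, 74 stayed within the interval of the main value, 12 moved outside it and 1 reversed; the alternatives were the other lists, stronger peaks, other distances, merged regions, distinct sequences, other limits of clustering and of the space between genes, and, chosen after seeing the data, a summit in any thresholded list and the relaxed box B. The share of tRNA genes with a summit was 41.5% with the summit inside the gene, 60.6% within 500 bp and 68.3% in any thresholded list. The difference between clustered and lone genes was -5.48 points with the summit inside the gene, 21.3 within 500 bp and 18.4 over merged regions, where more genes give more chances of a summit. Over distinct sequences, each counted as having a summit if any copy had one, and left out of a comparison where its copies fell in both classes, the differences were 7.18 points for X minus autosomes, -9.66 for introns minus between genes, 12.6 for exact box B minus none and -50.3 for single-copy minus multi-copy sequences; the last follows from the counting, since a sequence with more copies has more chances. The median signal was 293 over distinct sequences, taking the strongest copy, and 131 to 136 in single replicate lists, whose scale need not be that of the series list. With no counts in the files, weak peaks cannot be told from gaps in depth, and reads shared by identical copies cannot be followed.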
